A study of Neurospora crassa with 12 samples.

Results

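The 10 genes described here encode regulators and enzymes of nitrogen metabolism in the filamentous fungus Neurospora crassa. They were chosen by locus tag from the 9758 genes with expression values. The list holds 3 regulators (*nit-2*, *nit-4* and *nmr*), the nitrate and nitrite reductase genes (*nit-3* and *nit-6*), 3 genes that join or release ammonium (*am*, *gdh-1* and *gln-1*), an aminotransferase gene (*glu-2*) and a formamidase gene (*fma-1*), whose locus tags are given where each is described. RNA was sequenced from mycelia of 2 strains, each after 4 h in 2 media, with 3 cultures for each of the 4 groups. The question addressed was how expression responds to sulfur starvation, and how far that response requires CYS-3, the transcription factor that turns on sulfur acquisition genes.

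The wild-type groups carried an intact *cys-3* gene. The *cys-3* mutant groups came from 1 strain, whose *cys-3* gene is partly deleted, with a marker for hygromycin resistance in the place of the deleted stretch. Mycelia of all groups were grown for 24 h in Vogel's minimal medium, which by the sample labels held methionine at 500 mg/L, washed, and moved to Vogel's medium with 24 μM sulfate or with no sulfur source. Vogel's medium supplies nitrogen as ammonium nitrate, so all groups had the same nitrogen source, and nitrogen was never withheld. The mutant is a single strain, so the effect of *cys-3* cannot be told apart from other differences between this strain and the wild type. Values are from whole mycelia, in which fewer cells of a type and less RNA per cell cannot be told apart.

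In *N. crassa*, preferred nitrogen sources such as ammonium and glutamine keep genes for the use of other sources off. NIT2, a GATA-type zinc finger protein, activates such genes when preferred nitrogen runs low, and NMR binds NIT2 and restrains it. NIT4 adds the specific signal, since nitrate reductase and nitrite reductase genes need NIT4 and nitrate as well as NIT2. Ammonium is then built into glutamate by the NADP-dependent glutamate dehydrogenase encoded by *am*, and into glutamine by glutamine synthetase, while the NAD-dependent glutamate dehydrogenase encoded by *gdh-1* works mainly in the direction that breaks glutamate down.

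Expression was measured in FPKM, a read number scaled to the length of the transcript and the size of the library, so that levels can be compared between genes. The libraries held 7.33 to 11.2 megareads, as implied by the intervals given with the FPKM values, and replicate libraries correlated with r = 0.982 to 0.997 across genes. The remaining part of *cys-3* was transcribed in the mutant: *cys-3* stood at 58.7 to 66.6 FPKM in wild type with sulfate, 132 to 162 in starved wild type, 74.9 to 79.7 in the mutant with sulfate and 71.1 to 73.7 in the starved mutant. Of 5 genes expressed in conidia and aerial hyphae, the other cell types a culture can hold, *con-10* was at 0 to 1.55 FPKM, and the summed level of all 5 was higher in the mutant, as given with the strain comparison.

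Levels of the 10 genes spanned a wide range. With sulfate, wild-type cells held *am* at 479 ± 5.37 FPKM (SD, n = 3), *nit-6* at 391 ± 35.0, *gln-1* at 295 ± 12.4 and *glu-2* at 97.2 ± 5.95. The *am* and *nit-6* genes therefore stood at the 97.8 and 97.4 percentiles of detected genes. Intermediate levels were those of *nit-2* (54.5 ± 0.0638), *nit-3* (39.0 ± 2.88), *nmr* (18.9 ± 0.342) and *gdh-1* (13.7 ± 0.246). The lowest levels were those of *fma-1* (9.80 ± 0.988) and *nit-4* (4.23 ± 0.527). In this order each gene stood above the next in all 3 libraries of the group, so that no 2 neighbours overlapped.

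**Figure D1:**
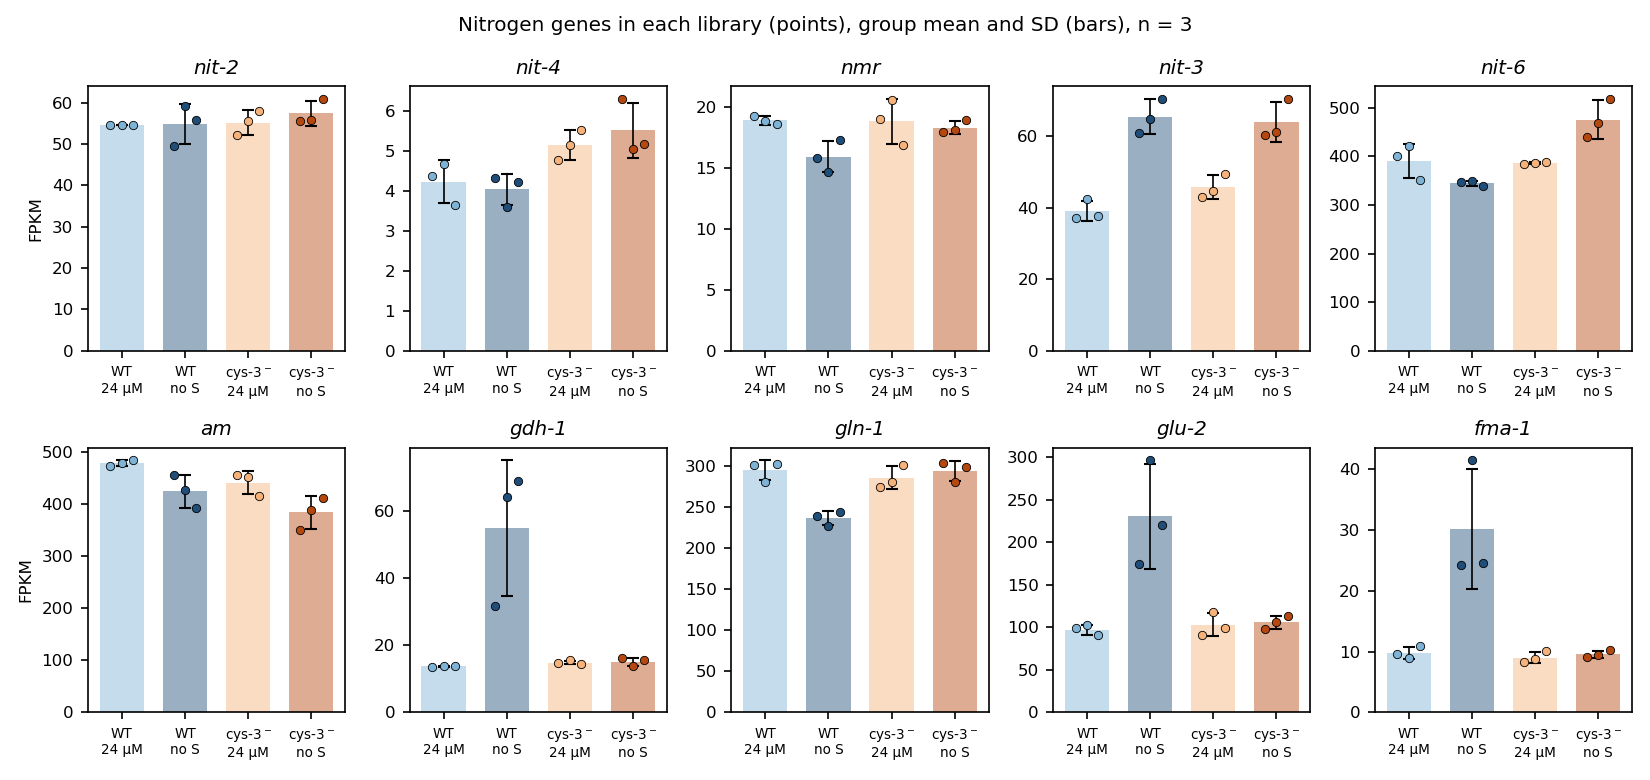
FPKM of the 10 nitrogen genes (vertical axis, from 0, 1 panel a gene) in the 4 groups of strain and medium, with each library as a point, the group mean as a bar and the SD as an error bar (n = 3). In starved wild type *gdh-1* reached 31.6 to 68.8, *glu-2* 174 to 297 and *fma-1* 24.3 to 41.5, above every library of the other 3 groups, while *nit-2* stayed between 49.5 and 61.0 in all 12 libraries.

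Differences were tested with limma on log2(FPKM + 1) for the 5035 genes whose mean reached 10 FPKM in 1 or more of the 4 groups, and p-values were adjusted over all of them. A gene is said to rise or fall where the adjusted p is under 0.05. A stricter call also asked for at least a 2-fold ratio of group means and 10 FPKM in a group compared. Of the 10 genes, 9 were tested. *nit-4* was not, as its highest group mean was 5.50 FPKM. *fma-1* entered the test only through its level in starved wild type.

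In wild type, expression of the NAD-dependent glutamate dehydrogenase, formamidase, aminotransferase and nitrate reductase genes was higher in sulfur starvation, and that of the glutamine synthetase gene was lower. 4 of the 9 genes rose (*gdh-1*, *fma-1*, *glu-2* and *nit-3*) and 2 fell (*gln-1* and *nmr*), whereas 23% of all tested genes changed in this comparison, 11.1% upward and 12% downward. The rises of *gdh-1*, *fma-1* and *glu-2* also met the 2-fold call, against 2.78% of all tested genes called upward. The study's text on these same data already names *glu-2* and *fma-1* as raised in sulfur starvation. The list was thus not chosen blind to the outcome. Its counts, here and in the comparisons below, are a description and cannot show an excess over all tested genes. Libraries of the 2 media did not overlap for 8 of the 9 genes, compared with 33.8% of all tested genes. The median log2 change was 0.00 for the 9 genes and -0.04 for all tested genes.

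The regulators changed little. *nit-2* (NCU09068), the activator gene on linkage group I (741884 to 746951 of the genome version 12 annotation), was at 54.5, 54.5 and 54.6 FPKM in wild type with sulfate and at 49.5, 59.2 and 55.7 in starved wild type. The starved libraries lay on both sides of the others, and the log2 change was 0.00 with a 95% interval of -0.16 to 0.17 (adjusted p = 0.989, limma). In the mutant it was at 52.1, 55.5 and 57.9 FPKM with sulfate and at 55.6, 55.7 and 61.0 in starvation. These groups overlapped too, and the log2 change of 0.06 had an interval of -0.11 to 0.22 (adjusted p = 0.745).

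*nmr*, the gene of the protein that restrains NIT2 (NCU04158, linkage group V, 5027349 to 5030561), was at 19.2, 18.8 and 18.5 FPKM in wild type with sulfate and at 15.8, 14.7 and 17.2 in starved wild type. Every starved library was lower than every library with sulfate. The level was 1.19-fold lower, a log2 change of -0.24 ± 0.08 (SE, n = 3 against 3), with an adjusted p of 0.0488 by limma. This fall lay at the edge of the threshold: the adjusted p ranged from 0.0165 to 0.138 over the alternatives tried and stayed under 0.05 in only 3 of the 12 fits that left out 1 library, those without replicate 3 of starved wild type and without replicates 2 and 3 of the mutant with sulfate. In the mutant, *nmr* was at 19.0, 20.6 and 16.9 FPKM with sulfate and at 17.9, 18.1 and 18.9 in starvation, where the groups overlapped (log2 change -0.04, interval -0.21 to 0.14, adjusted p = 0.864).

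*nit-4*, the pathway-specific activator of nitrate assimilation (NCU08294, linkage group IV, 2507739 to 2512139), was the most weakly expressed of the 10 genes, with 231 to 376 implied reads in a library. It stood at 4.37, 4.67 and 3.64 FPKM in wild type with sulfate and at 4.31, 3.60 and 4.22 in starved wild type. Mutant libraries held it at 4.76, 5.14 and 5.52 FPKM with sulfate and at 6.30, 5.04 and 5.17 in starvation. Every mutant library was thus higher than every wild-type library. When the minimum was lowered to 1 FPKM so that *nit-4* could be tested, the starved mutant was 1.36-fold higher than starved wild type (log2 difference 0.37, adjusted p = 0.0267, limma), and none of the other 4 comparisons passed, with adjusted p of 0.332 or more.

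*nit-3* and *nit-6* act in sequence, nitrate reductase reducing nitrate to nitrite and nitrite reductase reducing nitrite to ammonium. In wild type their transcripts did not move together. *nit-3* (NCU05298, linkage group IV, 5420216 to 5423422) was at 37.1, 42.4 and 37.7 FPKM in wild type with sulfate and at 60.9, 64.9 and 70.5 in starved wild type. All starved libraries were higher. *nit-3* rose 1.68-fold (log2 change 0.73 ± 0.09, SE, adjusted p = 7.75e-05, limma). *nit-6* (NCU04720, linkage group VI, 534862 to 539145) was at 399.8, 420.5 and 352 FPKM with sulfate and at 346, 349 and 339 in starvation. Here all starved libraries were lower, but by little: the ratio was 0.882, and the log2 change of -0.18 (interval -0.35 to -0.00) had an adjusted p of 0.131. With libraries scaled to the same upper quartile or quantile normalized, or with implied reads in place of FPKM, this difference of *nit-6* passed the threshold (adjusted p = 0.0472, 0.00898 and 0.0481).

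In the *cys-3* mutant, *nit-3* also rose with starvation, from 43.0, 44.8 and 49.5 FPKM to 60.5, 61.2 and 70.5, again with no overlap. The rise was 1.40-fold (log2 change 0.48 ± 0.09, SE, adjusted p = 0.0412, limma). It was the 1 gene of the 9 to pass in the mutant, where 0.417% of all tested genes did, and 0 of the 9 met the 2-fold call, against 0.0199% of all. The rise of *nit-3* lost its call in 9 of the 12 fits that left out 1 library, all but those without replicates 1 and 2 of wild type with sulfate and replicate 3 of the mutant with sulfate, with adjusted p of 0.0114 to 0.214 over all alternatives. *nit-6* in the mutant was at 383, 387 and 389 FPKM with sulfate and at 439.6, 468 and 519 in starvation. The starved mutant libraries were the highest of all 12, and the ratio of 1.23 against mutant cells with sulfate (log2 change 0.30, interval 0.12 to 0.47) had an adjusted p of 0.101.

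The ratio of nitrite reductase to nitrate reductase transcript was then computed within each library, which makes it independent of how libraries are scaled. In wild type it was 10.8, 9.93 and 9.34 with sulfate and 5.68, 5.37 and 4.81 in starvation, a 1.89-fold lower mean. In the mutant it was 8.91, 8.65 and 7.86 with sulfate and 7.27, 7.65 and 7.35 in starvation, a 1.14-fold lower mean. No starved library overlapped the libraries with sulfate of its strain. With 3 libraries against 3, a two-sided exact permutation test cannot go below p = 0.1, and all 8 comparisons made for this ratio and for that of *am* to *gdh-1* reached that value (adjusted p = 0.1).

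**Figure D2:**
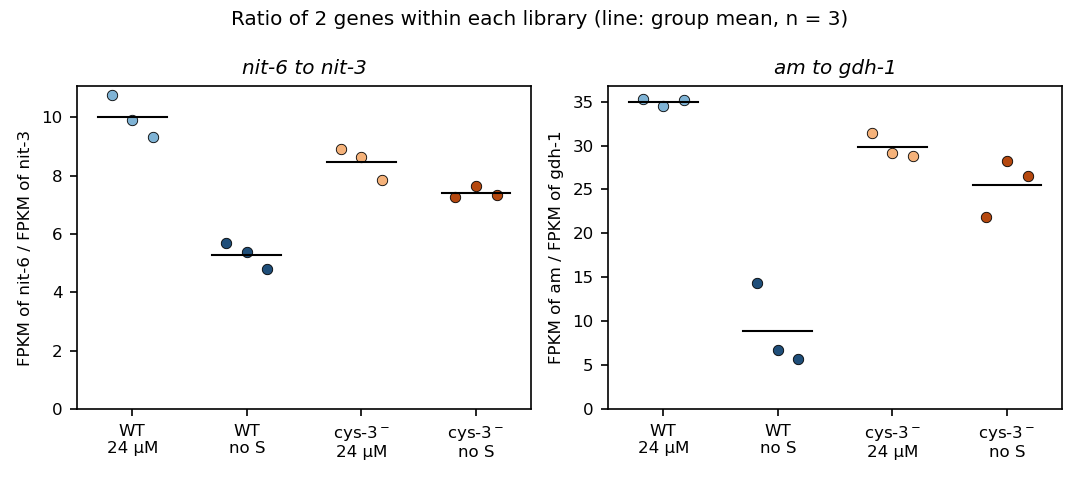
FPKM of *nit-6* divided by FPKM of *nit-3* (left) and FPKM of *am* divided by FPKM of *gdh-1* (right) within each library, by strain and medium, with points for libraries and lines for group means (n = 3). Starved wild type had the lowest ratios in both panels, 4.81 to 5.68 on the left and 5.69 to 14.4 on the right.

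The 2 glutamate dehydrogenase genes differed in response. *gdh-1*, encoding the NAD-dependent enzyme (NCU00461, linkage group III, 3944102 to 3949450), was at 13.4, 13.9 and 13.7 FPKM in wild type with sulfate and at 31.6, 63.9 and 68.8 in starved wild type. Replicate 1 of starved wild type was the lowest of its group and still above every library of the other 3 groups. *gdh-1* rose 4.01-fold (log2 change 1.85 ± 0.21, SE, adjusted p = 5.02e-05, limma), and 3.50- to 4.86-fold when each library was left out in turn. The mutant had it at 14.5, 15.5 and 14.4 FPKM with sulfate and at 16.0, 13.8 and 15.5 in starvation. These overlapped, with a log2 change of 0.02 and an interval of -0.43 to 0.48 (adjusted p = 0.974).

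*am*, encoding the NADP-dependent enzyme (NCU01195, linkage group V, 3200862 to 3203095), was at 473, 479 and 484 FPKM in wild type with sulfate and at 455, 427 and 392 in starved wild type. In mutant cells it stood at 456, 451 and 415 FPKM with sulfate and at 349.9, 389 and 412 in starvation. In both strains every starved library was lower than every library with sulfate. The differences did not pass the threshold, with a log2 change of -0.18 (interval -0.35 to -0.00, adjusted p = 0.130) in wild type and of -0.20 (interval -0.37 to -0.03, adjusted p = 0.231) in the mutant. That in wild type passed with array weights (adjusted p = 0.0157) and with quantile normalization (adjusted p = 0.0291).

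Set within each library, the ratio of *am* to *gdh-1* was 35.3, 34.5 and 35.2 in wild type with sulfate and 14.4, 6.67 and 5.69 in starved wild type, a 3.93-fold lower mean. In the mutant the ratio was 31.4, 29.2 and 28.8 with sulfate and 21.9, 28.2 and 26.5 in starvation. Starved mutant libraries were again lower than those with sulfate, by 1.17-fold in the mean.

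*gln-1*, a glutamine synthetase gene (NCU06724, linkage group V, 4393869 to 4397472), was at 301, 280.5 and 303 FPKM in wild type with sulfate and at 239, 227 and 244 in starved wild type. The groups were clearly apart. *gln-1* fell 1.25-fold (log2 change -0.32 ± 0.07, SE, adjusted p = 0.00563, limma), and this fall kept its call in all alternatives, with adjusted p of 0.0383 or less. Mutant cells held it at 274, 281 and 302 FPKM with sulfate and at 303, 280.3 and 298 in starvation, with overlapping libraries (log2 change 0.04, interval -0.10 to 0.19, adjusted p = 0.795). *N. crassa* has a related glutamine synthetase gene, *gln-2*, and how reads shared by related genes were divided is not given in the sources used here.

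*fma-1*, a formamidase gene, whose enzyme splits formamide into formate and ammonia (NCU02361, linkage group VII, 2747725 to 2749889), was at 9.58, 8.94 and 10.9 FPKM in wild type with sulfate and at 24.3, 41.5 and 24.6 in starved wild type. Replicate 2 was the highest, and all 3 starved libraries exceeded all others. *fma-1* rose 3.07-fold (log2 change 1.49 ± 0.17, SE, adjusted p = 4.73e-05, limma), and 2.49- to 3.37-fold when each library was left out. In the *cys-3* mutant it was at 8.26, 8.69 and 10.1 FPKM with sulfate and at 9.08, 9.38 and 10.2 in starvation, and these libraries overlapped (log2 change 0.08, interval -0.28 to 0.44, adjusted p = 0.851).

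*glu-2*, which the study lists as an aminotransferase gene (NCU08998, linkage group III, 4173688 to 4176272), was at 98.7, 102 and 90.6 FPKM in wild type with sulfate and at 174, 297 and 221 in starved wild type. No starved library overlapped those with sulfate. By FPKM, *glu-2* rose 2.37-fold (log2 change 1.21 ± 0.16, SE, adjusted p = 0.000156, limma). In the mutant it was at 91.5, 119 and 99.6 FPKM with sulfate and at 97.6, 106 and 113 in starvation, where libraries overlapped (log2 change 0.04, interval -0.30 to 0.38, adjusted p = 0.929).

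The size of the *glu-2* change depended on the measure. Libraries of starved wild type gave 1.20 implied reads for each FPKM and megaread, against 1.86 in wild type with sulfate, 2.03 in the mutant with sulfate and 1.93 in the starved mutant. The SD of this factor across libraries was 0.38 on the log2 scale for *glu-2*, compared with a median of 0.0367 over the tested genes, and 153 of the 5035 genes had an SD above 0.2. With implied reads in place of FPKM (limma-voom, a fit chosen after seeing the data), the log2 change of *glu-2* in wild type was 0.54 (adjusted p = 0.00245). This is under the 2-fold limit, which the call took from FPKM. The locus also shares 122 bp with NCU08997, reads carried no strand information, and NCU08997 itself was at 64.8 to 86.3 FPKM across libraries.

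**Figure D3:**
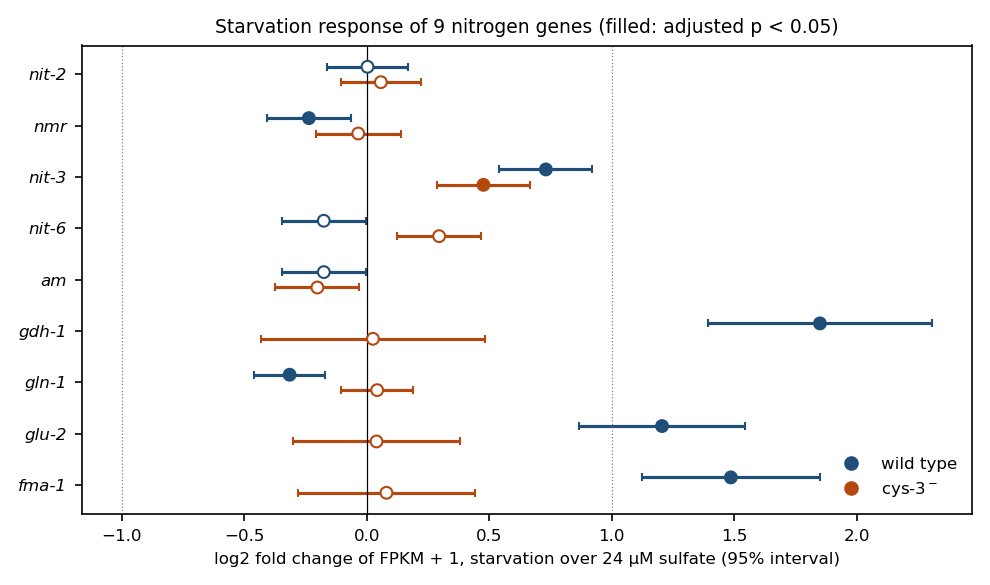
Starvation response of the 9 tested nitrogen genes as the log2 fold change of FPKM + 1 between medium without sulfur and medium with 24 μM sulfate (horizontal axis), in wild type and in the *cys-3* mutant, with 95% intervals from limma. Filled points have an adjusted p under 0.05, and dotted lines mark a 2-fold change. Wild-type changes reached 1.85 for *gdh-1*, 1.49 for *fma-1* and 1.21 for *glu-2*, with mutant changes of 0.02, 0.08 and 0.04.

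The interaction, in which the response of wild type is subtracted from that of the mutant, was tested next. It passed for 5 of the 9 genes, 2 higher and 3 lower, compared with 13.9% of all tested genes, 6.16% higher and 7.71% lower. The 3 lower ones also differed at least 2-fold, as did 2.74% of all tested genes in that direction. The responses of *gdh-1* (log2 difference -1.83 ± 0.30, SE, adjusted p = 0.00166), *fma-1* (-1.41 ± 0.24, adjusted p = 0.00212) and *glu-2* (-1.17 ± 0.22, adjusted p = 0.00471) were smaller in the mutant. By implied reads the difference for *glu-2* was -0.57 (adjusted p = 0.0227). All 3 kept an adjusted p under 0.05 in each fit that left out 1 library, but without replicate 2 of starved wild type the ratio for *glu-2* was 0.506 and no longer 2-fold.

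For 2 genes the response was more positive in the mutant. *nit-6* differed by 0.47 ± 0.11 (SE, adjusted p = 0.0156), with a response of -0.18 in wild type and of 0.30 in the mutant, neither of which passed on its own. *gln-1* differed by 0.36 ± 0.09 (adjusted p = 0.0269). This last call was lost without each of 6 libraries, namely replicates 1 and 3 of wild type with sulfate, 1 and 2 of the mutant with sulfate and 1 and 3 of the starved mutant, with adjusted p of up to 0.0721. The response of *nit-3* was not shown to differ between the strains, with a log2 difference of -0.26 and an interval of -0.52 to 0.01 (adjusted p = 0.203). The intervals were -0.04 to 0.45 for *nmr*, -0.27 to 0.22 for *am* and -0.18 to 0.29 for *nit-2*.

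In starvation, the strains were also compared directly. Here *fma-1* was 3.15-fold lower in the mutant (log2 difference -1.52 ± 0.17, SE, adjusted p = 3.5e-05, limma), *gdh-1* 3.63-fold lower (-1.72 ± 0.21, adjusted p = 8.47e-05) and *glu-2* 2.18-fold lower (-1.09 ± 0.16, adjusted p = 0.000286). The mutant libraries were below all wild-type libraries for each of the 3 genes. For *glu-2* the log2 difference by implied reads was -0.36 (adjusted p = 0.0161), and without replicate 2 of starved wild type the ratio of FPKM was 0.535, under the 2-fold limit. *nit-6* was 1.38-fold higher in the mutant (log2 difference 0.46 ± 0.08, adjusted p = 0.00101) and *gln-1* 1.24-fold higher (0.31 ± 0.07, adjusted p = 0.00379). These 5 of 9 genes compare with 37.8% of all tested genes past the threshold, 20.7% higher and 17.1% lower in the mutant, and the 3 called lower with 2.76%.

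The other 4 tested genes did not pass between the starved strains. *nmr* was 1.15-fold higher in the mutant without overlap (log2 difference 0.19, interval 0.02 to 0.37, adjusted p = 0.0727), and it passed with upper quartile scaling (adjusted p = 0.0462), with quantile normalization (0.043), with implied reads (0.0404) and without replicate 3 of starved wild type (0.0484). The intervals of the log2 difference were -0.32 to 0.02 for *am*, -0.22 to 0.16 for *nit-3* and -0.09 to 0.23 for *nit-2*. *nit-3*, which rose with starvation in both strains, thus reached 60.9 to 70.5 FPKM in starved wild type and 60.5 to 70.5 in the starved mutant, nearly the same range. Libraries of the starved strains did not overlap for 6 of the 9 genes, compared with 55.2% of all tested genes.

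The summed level of the conidial genes *eas*, *con-6*, *con-8*, *con-10* and *fl* moved with the strain. It was 28.3 to 37.3 FPKM in starved wild type and 46.9 to 50.5 in the starved mutant, and 22.1 to 37.1 in wild type with sulfate and 44.4 to 66.6 in the mutant with sulfate. The mean of *eas* alone was 14.0 and 22.5 in the starved strains and 12.0 and 29.8 with sulfate. Neither *eas* nor *fl* passed between the strains by limma. Adjusted p was 0.0583 for *eas* and 0.133 for *fl* in starvation, and 0.0813 and 0.322 with sulfate. With sulfate *eas* was 2.47-fold higher in the mutant, without overlap of libraries. The study's own analysis of these data lists *eas* among the few genes raised in the mutant in that medium. The other markers were too low to be tested. All 5 markers were detected in each group, with *con-10* at 0 in 1 library. The part of these markers in the strain differences of the nitrogen genes was not tested.

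In medium with sulfate 0 of the 9 nitrogen genes passed between the strains (limma). At an unadjusted p under 0.05 the count was 1, for *nit-3*, whose log2 difference of 0.22 (interval 0.03 to 0.41) had an adjusted p of 0.269, and limma-voom on implied reads gave 0. Over all tested genes 0.238% passed. With array weights 1 of the 9 genes passed, again *nit-3* (adjusted p = 0.0146). The intervals were narrow for most genes, such as -0.18 to 0.16 for *nit-6* (386 ± 2.79 FPKM in the mutant, n = 3) and -0.19 to 0.10 for *gln-1* (286 ± 14.2). The widest was that of *gdh-1* (-0.35 to 0.56, 14.8 ± 0.569). This width reflects the spread pooled over all 12 libraries. The SD of *gdh-1* was 20.2 FPKM in starved wild type, against 0.246 and 0.569 in the groups compared here. The libraries with sulfate of 1 strain enter both the starvation response of that strain and this comparison, so that these results share control samples.

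Other genes of nitrogen metabolism were taken from their symbols: the nitrate transporter gene *nit-10*, the glutamate synthase gene *en(am)-2*, *gln-2*, the purine catabolism genes *xdh-1*, *aln-1*, *alc-1* and *pco-1*, and 5 other GATA factor genes (*asd-4*, *sre*, *sub-1*, *wc-1* and *wc-2*), of which the last are not nitrogen genes but share the DNA-binding domain of NIT2. All 12 were tested. In wild type, 2 of the 12 rose in starvation and 0 fell, against 11.1% of all tested genes upward and 12% downward. In the mutant 0 passed by limma, with 3 at an unadjusted p under 0.05 and 0 by limma-voom on implied reads. Under starvation 3 were higher and 4 lower in the mutant than in wild type, against 20.7% and 17.1% of all tested genes, and with implied reads 5 of the 12 passed. None of the 12 met the 2-fold call in any of the 5 comparisons, and with sulfate 0 passed between the strains, also at an unadjusted p under 0.05 and by limma-voom. The genes named in the next paragraphs were singled out after their values were seen.

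The 2 that rose in wild type belong to purine catabolism, the route by which purine nitrogen is recovered. *xdh-1*, encoding xanthine dehydrogenase, was at 7.96, 9.89 and 9.21 FPKM with sulfate and at 15.4, 18.6 and 17.7 in starvation, a 1.91-fold rise (log2 change 0.86 ± 0.09, SE, adjusted p = 2.82e-05, limma). *alc-1*, encoding allantoicase, was at 47.5, 52.4 and 51.7 FPKM with sulfate and at 85.5, 108 and 88.6 in starvation, a 1.86-fold rise (log2 change 0.87 ± 0.12, SE, adjusted p = 0.000222). Libraries of the 2 media did not overlap for either gene. In the mutant *xdh-1* was at 9.47 to 9.88 FPKM with sulfate and at 9.85 to 10.3 in starvation, and *alc-1* at 47.6 to 65.5 and 57.8 to 68.6. The responses differed between strains by interaction for both, by -0.81 for *xdh-1* (adjusted p = 0.00148) and by -0.74 for *alc-1* (adjusted p = 0.0126).

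*pco-1*, the activator gene of purine catabolism, was at 11.3 to 12.7 FPKM in wild type with sulfate and at 12.9 to 14.0 in starvation (log2 change 0.18, adjusted p = 0.115). It was lower in the starved mutant than in starved wild type by 0.24 on the log2 scale (adjusted p = 0.026), a call lost without replicate 2 or 3 of starved wild type or replicate 1 or 2 of the starved mutant, and with implied reads, with adjusted p of up to 0.151. *aln-1*, for allantoinase, passed in none of the comparisons. *asd-4* was 1.33-fold lower in the starved mutant (adjusted p = 0.00886).

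The 3 of the 12 listed genes that were higher in the starved mutant were *nit-10*, *gln-2* and *en(am)-2*, against 20.7% of all tested genes. The list held no other genes of nitrate uptake or ammonium assimilation, so their shared role follows from the list and is no result. *nit-10* was at 264, 239 and 284 FPKM in starved wild type and at 340.0, 367 and 481 in the starved mutant, 1.51-fold higher (log2 difference 0.58 ± 0.13, SE, adjusted p = 0.00448). As with *nit-6*, every starved mutant library exceeded every starved wild-type library. *gln-2* (526 against 656 FPKM, adjusted p = 0.0095) and *en(am)-2* (59.0 against 73.5 FPKM, adjusted p = 0.0136) were each 1.25-fold higher. *gln-2* did not pass with implied reads (adjusted p = 0.0696). The interaction (limma) missed the threshold for *nit-10* (log2 difference 0.55, adjusted p = 0.0629) and *gln-2* (0.34, adjusted p = 0.0706), and by more for *en(am)-2* (0.17, adjusted p = 0.404).

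**Figure D4:**
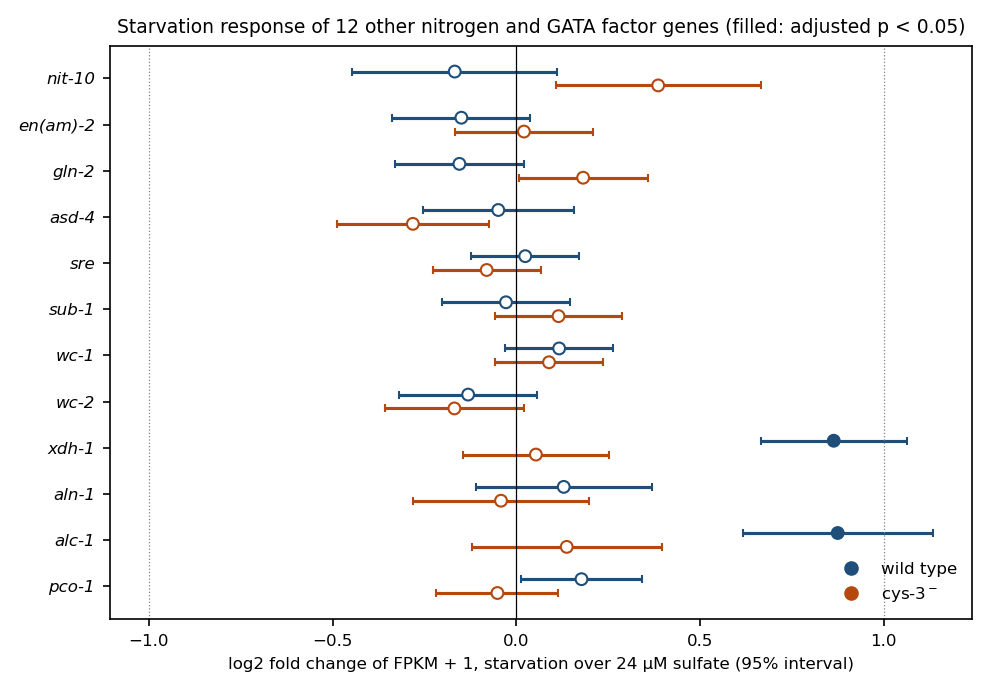
Starvation response of the 12 further nitrogen and GATA factor genes, drawn like the response plot of the 9 tested genes (log2 fold change of FPKM + 1 with 95% intervals, wild type and *cys-3* mutant). The filled points, with an adjusted p under 0.05, are *xdh-1* (0.86) and *alc-1* (0.87) in wild type, and dotted lines mark a 2-fold change.

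Across the 12 libraries *gdh-1*, *glu-2* and *fma-1* followed one another, with Pearson r of log2(FPKM + 1) of 0.96 for *gdh-1* and *glu-2*, 0.94 for *gdh-1* and *fma-1*, and 0.96 for *glu-2* and *fma-1*. *gln-1* ran opposite to them, at -0.88 with *gdh-1*, -0.91 with *glu-2* and -0.89 with *fma-1*. The coefficient between *nit-3* and *nit-6* was 0.18, and that between *am* and *gdh-1* was -0.22. These coefficients are a description, since the 12 libraries fall into 4 groups and the genes share those groups and the scaling of each library.

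The gene nearest in pattern among all tested genes was NCU07536 for *gdh-1* (r = 0.994, 1.57 to 29.5 FPKM), NCU06112 for *fma-1* (r = 0.989) and NCU09535 for *glu-2* (r = 0.983). For *gln-1* it was *arg-6* (r = 0.953, 101 to 141 FPKM), a gene of arginine biosynthesis. *nit-6* was nearest to NCU08283 (r = 0.969), *nit-3* to NCU08288 (r = 0.962), *am* to NCU00920 (r = 0.934) and *nmr* to NCU07178 (r = 0.906). For *nit-2* the highest r was the lowest of these, with NCU01924 (r = 0.811). Each value is the highest r among all tested genes over only 12 libraries. That choice alone raises r, and no value was tested.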

How the data were processed

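The authors sequenced poly(A) RNA of mycelia as single-end reads of 90 bp without strand, aligned them to genome version 12 with an intron limit of 5000 bp, and turned them into the deposited FPKM values, 1 file a library. The submitters' processing notes name HISAT2 2.1.0, Cufflinks 2.2.1 and Cuffnorm 2.2.1. Read numbers behind the values were inferred from the Cufflinks intervals, and among 16475 values of at most 20 reads, 77.3% were whole to within 0.05.

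Groups and replicate numbers followed the labels. Of the 9758 genes, 9757 matched the reference by locus tag, and the symbols *glu-2* and *fma-1* came from the study's text. 4 genes with a failed status were left out of tests. FPKM values were log2-transformed here with a pseudocount of 1, and all 12 libraries were fitted together in limma 3.58.1 (R 4.3.3), with 1 mean a group and variances moderated towards a trend. Each SE and interval thus pools the spread of all 4 groups. They can be too small where a widely spread group is compared and too wide elsewhere. In starved wild type the SD was 36.9% of the mean for *gdh-1*, 32.8% for *fma-1* and 26.8% for *glu-2*. Genes entered if any group mean reached 10 FPKM. The p-values of each contrast were adjusted by Benjamini-Hochberg across the 5035 genes fitted. The 2-fold call used ratios of group mean FPKM, and in the interaction the ratio between the strains' starvation ratios (mean FPKM + 1). Fold values in the text are ratios of mean FPKM, and log2 changes are of FPKM + 1, which understates changes of low genes. The procedure was tested on simulated data.

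Alternatives were a pseudocount of 0.1, minima of 1 FPKM or none, a 1.5-fold limit, folds on the log2 scale, upper quartile scaling, quantile normalization, array weights, no trend of the variance, a block for replicate number, fits restricted to the groups compared, and leaving out each library. Fitting the implied reads with limma-voom, scaled to their total over the tested genes, was added after seeing the data. The 1.5-fold limit and the folds on the log2 scale bear only on the 2-fold call. They cannot move a log2 change or its adjusted p, so their values stay unchanged by construction. Leaving out a library of a group not compared can move the adjusted p but not the sign. Counts of unchanged values therefore overstate how far the results were put to the test. The rule for named genes took every member, the called genes among the other nitrogen genes, and the gene of most similar pattern for each member. None of the other nitrogen genes was called, so those described were named outside this rule, after their values were seen. The members and the lists were chosen with earlier results of these data known. The 4 purine catabolism genes were added by symbol after the files had been opened. Remaining steps used pandas 2.3.3, numpy 2.4.6, scipy 1.17.1 and matplotlib 3.10.9.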

Additional observations from a re-analysis of the deposited data

Results flagged for a closer look

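The starvation responses of the 2 strains differed by the interaction test (limma, adjusted over 5035 genes) for 5 of the 9 tested nitrogen genes. The response in the mutant minus that in wild type, on the log2 scale, was -1.83 for *gdh-1* (adjusted p = 0.00166), -1.41 for *fma-1* (adjusted p = 0.00212) and -1.17 for *glu-2* (adjusted p = 0.00471). It was 0.47 for *nit-6* (adjusted p = 0.0156) and 0.36 for *gln-1* (adjusted p = 0.0269).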

How the results depend on the processing

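Of 1071 recomputed values for the 9 tested genes, 995 kept direction and side of the threshold. Some of these could not change, as given above. Of the rest, 37 lost a call, 11 gained one and 28 that had not passed changed sign. Adjusted p of *gdh-1*, *fma-1* and *glu-2* stayed under 0.05 in all alternatives for starvation in wild type, between starved strains and by interaction. With implied reads *glu-2* was under 2-fold in each, at log2 values of 0.54, -0.36 and -0.57. Without replicate 2 of starved wild type, its FPKM ratio was also under 2-fold in the comparisons with the mutant. The number of the 9 genes that passed for starvation in the mutant fell from 1 to 0 with a minimum of 1 FPKM, with no minimum, without the variance trend, with quantile normalization and with implied reads, and was 0 to 1 when each library was left out (1 without replicates 1 and 2 of wild type with sulfate and replicate 3 of the mutant with sulfate). Between the strains with sulfate it was 1 with array weights. The cause of these changes was not tested.

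Replicate numbers did not pair the libraries: same-numbered libraries had correlations of -0.51 to 0.45 and were nearest to each other in 6 of 36 cases. With the replicate number as a block, 0 of the 9 genes passed for starvation in the mutant (*nit-3*, adjusted p = 0.0826), *nmr* lost its call in wild type (adjusted p = 0.0841), and 3 genes in all passed in the mutant. No other call of the 9 genes changed.

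Changed signs were those of *am* for the interaction (0.043 with array weights, 0.047 with quantile normalization, 0.027 with implied reads and 0.017 with upper quartile scaling, against -0.027), *glu-2* in the starved mutant (-0.030 with implied reads), *nit-2* in starved wild type (-0.019 with quantile normalization, -0.026 with implied reads and -0.050 with upper quartile scaling) and between strains with sulfate (-0.0032 with upper quartile scaling), and *nit-6* between strains with sulfate (0.093 with array weights). Leaving out each library gave log2 ranges across 0 for *am* by interaction (-0.083 to 0.038), for *gdh-1* (-0.016 to 0.086), *glu-2* (-0.042 to 0.14) and *nmr* (-0.11 to 0.028) in the starved mutant, for *nit-2* in starved wild type (-0.054 to 0.072), by interaction (-0.015 to 0.11), between strains with sulfate (-0.021 to 0.055) and in starvation (-0.0007 to 0.13), for *nit-3* between starved strains (-0.10 to 0.022), and with sulfate for *glu-2* (-0.024 to 0.16), *nit-6* (-0.086 to 0.042) and *nmr* (-0.072 to 0.063).

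Counts over all 5035 genes moved more. For starvation in wild type 1160 genes passed, against 2184 with array weights, 666 with only the groups compared and 679 without replicate 1 of wild type with sulfate. In the mutant 21 passed, against 213 with array weights, 57 with only the groups compared, 11 with a minimum of 1 FPKM or quantile normalization, 8 with implied reads, 6 with no minimum, 5 without the trend and 0 to 50 when a library was left out. The 1 gene called there became 7 at 1.5-fold, 0 under 7 other settings and 0 to 10 when a library was left out. Between the strains with sulfate 12 passed, against 1458 with array weights, 6 with only the groups compared 7 without replicate 3 of wild type or replicate 1 of the mutant with sulfate and 710 without replicate 2 of wild type with sulfate. Of these 8 were called, against 14 with array weights, 37 without that replicate 2 and 5 without that replicate 3. By interaction 698 passed, against 1373 with array weights and 453 without replicate 3 of starved wild type. A limit of 1.5-fold raised the calls from 157 to 434 for wild type, from 181 to 521 between the starved strains and from 160 to 378 for the interaction.

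With 3 cultures a group, differences inside the intervals given were not excluded. *fma-1* and *nit-4* rested on the fewest reads, 172 to 1019 and 231 to 376 in a library.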
